A study of Mus musculus with 9 samples.

Results

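The genes described here are markers of B and T lymphocytes, chosen by symbol: Cd79a, Cd79b, Ms4a1, Cd3e, Cd3d, Cd3g, Cd4, Cd8a and Cd2. Of these 9 symbols, 8 stood on a row among the 21124 genes counted in rat penile tissue, 3 of B cells and 5 of T cells. No row carried the symbol Cd4, but 1 row without a symbol was described as the Cd4 molecule by the deposited tables, and it is given beside the members and not counted with them.

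RNA came from penile tissue of rats 4 weeks after surgery, in 3 groups of 3 libraries. All rats were operated on. In Sham the major pelvic ganglia, which carry the autonomic nerves of the penis, were left uninjured; in Injury both ganglia were clamped; and Sacral NC rats had both ganglia clamped and then received sacral neural crest cells, which the series title derives from human pluripotent stem cells. Strain, age and host immune state were not given in the sources used here, no mock transplantation is named for Injury, and the labels do not say whether each library is 1 animal, so the p-values measure the spread between these libraries. Some labels call the samples mouse, a cell line or pluripotent stem cells, whereas the tissue label names rat penis and each of the 21124 Ensembl identifiers is from rat.

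B cells recognise antigen through surface immunoglobulin, which signals into the cell through the paired chains encoded by Cd79a and Cd79b. Ms4a1 encodes CD20, a membrane protein of mature B cells. T cells recognise antigen through the T cell receptor, whose signal is carried by the CD3 chains, among them epsilon, delta and gamma (Cd3e, Cd3d, Cd3g). CD4 and CD8 are co-receptors that divide T cells into helper and cytotoxic cells, and CD2 is an adhesion molecule of T and natural killer cells. In rats, CD4 is also carried by monocytes and macrophages, and CD8 alpha by natural killer cells, so neither is restricted to T cells in this species.

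All 8 members were near the lower limit of the counts. Library totals ran from 15442190 to 18283418 reads, and the members together took between 21 and 155 of them. The highest count of any member in any library was 44 reads, for Cd3e in Sham 2. Counting error is therefore a large part of most member values below. Cd3e in Sham, at 0, 44 and 5 reads, also spread widely between libraries. In whole tissue a smaller number of lymphocytes cannot be told apart from less RNA in each of them.

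Several libraries stood apart within their groups. Sham 2 had 147 reads of the 5 T cell members, where Sham 1 and Sham 3 had 47 each. Sacral NC 3 had the highest count in its group for all 8 members and Sacral NC 2 the lowest for all 8. Skeletal muscle genes took 3.17 % of the reads of Injury 2, 1.11 % of Sham 1, 0.303 % of Sacral NC 2 and 0.262 % of Injury 1, and at most 0.0367 % of the other 5 libraries. The 12 listed fibroblast and matrix genes summed to between 145547 and 195381 scaled CPM in Injury and to at most 48477 in the other groups. Scaled CPM are reads per 1000000 after TMM scaling, which corrects for genes that take a large share of a library. Only 6 of the 12 had a log2 change above 0 in Injury against Sham, with a median of 0.10. Col1a1 had 1159133 to 1593783 reads in Injury and at most 328042 elsewhere, whereas Dcn had 56033 to 89585 in Injury and at least 95657 elsewhere. The part of muscle tissue or of these matrix genes in the results below was not tested beyond the alternatives named.

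**Figure D1:**
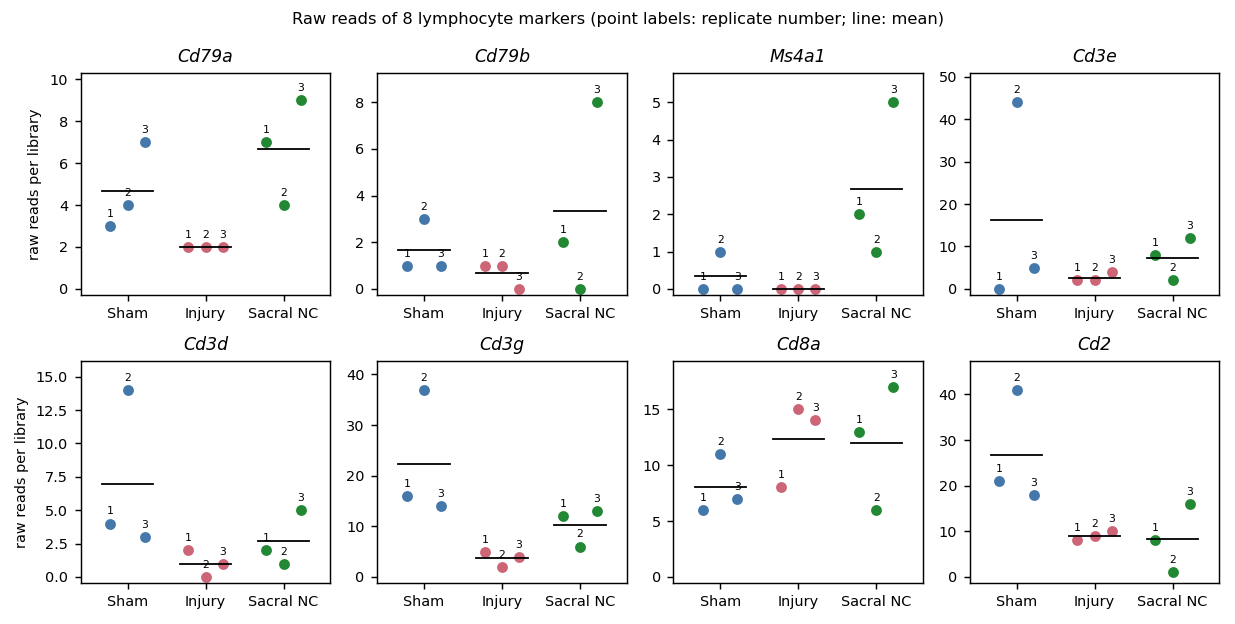
Raw reads (y axis, a scale of its own in each panel) of the 8 members in the 3 libraries of each group (x axis); points are libraries with their replicate number and the line is the group mean. Sham 2 is the highest library for Cd3e, Cd3d, Cd3g and Cd2, and Sacral NC 3 leads its group in every panel.

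Among the B cell members, Cd79a (ENSRNOG00000020125, chromosome 1, 80493581 to 80497935, plus strand) had 3, 4 and 7 reads in Sham libraries 1 to 3, 2, 2 and 2 in Injury, and 7, 4 and 9 in Sacral NC. In scaled CPM this was 0.260 ± 0.122 in Sham, 0.131 ± 0.00796 in Injury and 0.409 ± 0.159 in Sacral NC (SD, n = 3 each). All Injury libraries lay below all libraries of the other groups, while Sham and Sacral NC overlapped. The pooled reads of Sacral NC and Injury, 20 and 6, give a ratio of 3.13 with a 95 % counting interval from 1.21 to 9.52 (exact binomial, which covers counting error only and not the spread between rats).

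Cd79b (ENSRNOG00000011917, chromosome 10, 91239356 to 91242625, minus strand) had 1, 3 and 1 reads in Sham, 1, 1 and 0 in Injury and 2, 0 and 8 in Sacral NC. The groups overlapped, and 8 of the 10 Sacral NC reads came from Sacral NC 3. Ms4a1 (ENSRNOG00000020945, chromosome 1, 207906374 to 207918512, minus strand) had 0, 1 and 0 reads in Sham, 0 in all 3 Injury libraries and 2, 1 and 5 in Sacral NC. A count of 0 in Injury allows a level of up to 0.0652 scaled CPM (3 reads over the group). The pooled reads, 8 against 0, give a Sacral NC to Injury ratio with an exact lower counting limit of 1.60, and of 0.576 without Sacral NC 3, which held 5 of the 8 reads. Every Sacral NC library held an Ms4a1 read and lay above every library of the other groups in scaled CPM. Sacral NC 2 and Sham 2 each held 1 read, so these libraries were set apart by the scaling alone. Against the single read of Sham the ratio was 8.84, with a counting interval from 1.19 to 392 (4.92 without Sacral NC 3, interval 0.395 to 258).

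The 3 CD3 genes lie next to each other on chromosome 8 within 33.8 kb, with no other gene of the tables between them. Cd3g (ENSRNOG00000015945, 45281204 to 45287147) and Cd3e (ENSRNOG00000016069, 45303852 to 45315022) are on the minus strand and Cd3d (ENSRNOG00000015994, 45288749 to 45301809) is between them on the plus strand. The annotated intervals do not overlap, with gaps of 1601 and 2042 bases. The rat genome build behind these positions was not given in the sources used here.

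Cd3g had 16, 37 and 14 reads in Sham, 5, 2 and 4 in Injury and 12, 6 and 13 in Sacral NC. In scaled CPM this was 1.24 ± 0.704 in Sham, 0.237 ± 0.0943 in Injury and 0.633 ± 0.236 in Sacral NC (SD, n = 3 each). Injury was below Sham and below Sacral NC in every library, and Sham and Sacral NC overlapped in scaled CPM. The order of the group means was thus Sham, Sacral NC, Injury, with the first neighbours in that order not separated beyond their spread.

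Cd3e had 0, 44 and 5 reads in Sham, 2, 2 and 4 in Injury and 8, 2 and 12 in Sacral NC. Sham 2 held 44 of the 49 Sham reads, Sham 1 held none, and all 3 groups overlapped. Cd3d had 4, 14 and 3 reads in Sham, 2, 0 and 1 in Injury and 2, 1 and 5 in Sacral NC. Injury lay below Sham in every library and overlapped Sacral NC, and Sham 2 again held most of the Sham reads. Pooled over libraries, the Injury level was 0.168 of Sham for Cd3d (counting interval 0.0321 to 0.563), 0.192 for Cd3e (0.0786 to 0.409) and 0.193 for Cd3g (0.0921 to 0.368). Without Sham 2 these ratios were 0.336 for Cd3d (0.0561 to 1.47), 1.26 for Cd3e (0.362 to 4.88) and 0.288 for Cd3g (0.130 to 0.591), so the direction turned for Cd3e and Cd3g alone kept an interval below 1.

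Cd2 (ENSRNOG00000015821, chromosome 2, 188710900 to 188724026, minus strand) had 21, 41 and 18 reads in Sham, 8, 9 and 10 in Injury and 8, 1 and 16 in Sacral NC. In scaled CPM this was 1.48 ± 0.690, 0.587 ± 0.0557 and 0.514 ± 0.470 (SD, n = 3 each). Both groups with clamped ganglia lay below Sham in every library and overlapped each other. Unlike the CD3 genes, Cd2 thus had no higher mean in Sacral NC than in Injury; the difference between the genes was not tested.

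Cd8a (ENSRNOG00000007178, chromosome 4, 103365804 to 103370040, plus strand) had 6, 11 and 7 reads in Sham, 8, 15 and 14 in Injury and 13, 6 and 17 in Sacral NC. In scaled CPM this was 0.443 ± 0.148, 0.807 ± 0.262 and 0.737 ± 0.350 (SD, n = 3 each). Cd8a was the only member with its lowest mean in Sham, and all 3 groups overlapped. Cd8b, the partner chain of CD8 alpha on cytotoxic T cells, had 2, 4 and 2 reads in Sham, 1, 0 and 0 in Injury, and 1, 0 and 14 in Sacral NC, the last in Sacral NC 3.

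The row described as Cd4 (ENSRNOG00000071219, chromosome 4, 157668878 to 157695191, minus strand) was on another scale. It had 989, 1514 and 1697 reads in Sham, 584, 681 and 918 in Injury and 1942, 597 and 4573 in Sacral NC. Injury lay below Sham in every library by raw reads, but the groups overlapped in scaled CPM. The 19 macrophage and monocyte genes found of 20 listed, none at 0 reads in all libraries, had summed levels from 963 to 1488 scaled CPM in Sham, 507 to 717 in Injury and 535 to 3694 in Sacral NC, and in each group the library highest for this list was the library highest for the Cd4 row. The part of macrophages in the Cd4 reads was not tested.

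**Figure D2:**
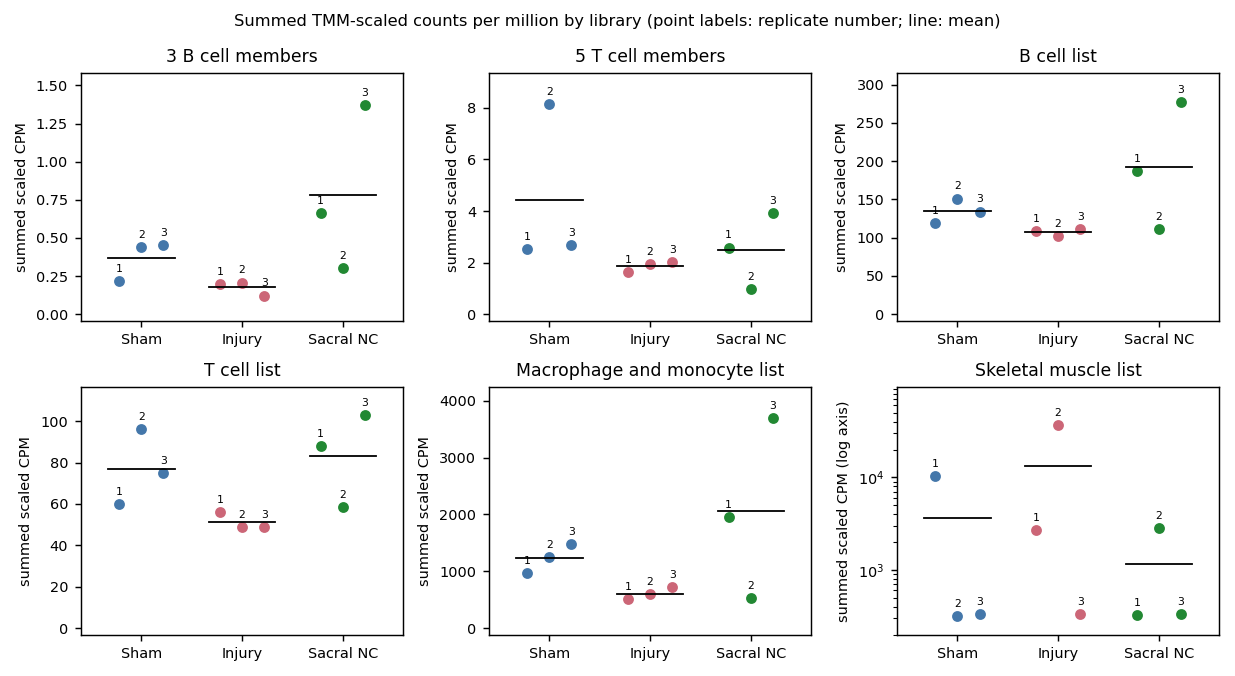
Summed scaled CPM (y axis; a log axis for skeletal muscle) by library and group (x axis), for the 3 B cell members, the 5 T cell members and 4 marker lists; points are libraries with their replicate number and the line is the group mean. Sham 2 leads the T cell members at 8.14, Sacral NC 3 leads the B cell members at 1.37, and Sacral NC 3 also leads the macrophage list at 3694.

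Injury against Sham asks what differed 4 weeks after clamping. Of the 8 members, 3 had enough reads to be tested (Cd3g, Cd2 and Cd8a), and 0 of these 3 passed an adjusted p of 0.05 by the edgeR quasi-likelihood test, against 4.43 % of the 15509 genes tested (3.09 % higher and 1.34 % lower in Injury). Cd3g came closest, with a log2 change of −2.34 ± 0.56 (SE, 95 % interval −3.61 to −1.07) and an adjusted p of 0.0536 by edgeR. The log2 change was −1.32 ± 0.67 for Cd2 (interval −2.84 to 0.20, adjusted p = 0.286) and 0.85 ± 0.48 for Cd8a (interval −0.25 to 1.95, adjusted p = 0.335), both by edgeR. Their median was −1.32, beside −0.04 over all genes tested, and at an unadjusted p under 0.05 the count was 1 of 3, against 21.9 % of all genes. By library values alone, 4 of the 8 members (Cd79a, Cd3d, Cd3g and Cd2) were lower in Injury with no overlap, against 16 % of all genes with a read, and 0 were higher with no overlap, against 12.9 %. For Cd79a and Cd3d the gap was narrow, with at least 3 reads in each Sham library and at most 2 in each Injury library.

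The Cd3g call lay at the threshold and moved with the settings. DESeq2 gave an adjusted p of 0.0177, where 9.79 % of genes were called, and the authors' deposited table gave 0.0173 for a log2 fold change of 2.34 (Sham minus Injury). Of the 8 members, 4 had no adjusted p in the authors' deposited table for this comparison. Without Sham 2 the edgeR log2 change of Cd3g was −1.77 (adjusted p = 0.173) and that of Cd2 was −0.87.

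The second comparison, Sacral NC with Injury, sets clamped rats with and without transplanted cells side by side. Again 0 of the 3 tested members passed by edgeR, against 6.96 % of all genes (3.26 % higher and 3.7 % lower in Sacral NC), and 0 passed with DESeq2, where 14 % of genes were called. At an unadjusted p under 0.05 the count was 1 of 3, against 26.6 % of all genes. Cd3g had a log2 change of 1.38 ± 0.58 (SE, interval 0.05 to 2.71, adjusted p = 0.174 by edgeR). For Cd8a the value was −0.13 ± 0.46 (interval −1.19 to 0.93) and for Cd2 −0.19 ± 0.72 (interval −1.83 to 1.44), so both intervals held values above and below 0. Of the 8 members 3 (Cd79a, Ms4a1 and Cd3g) were higher in Sacral NC with no overlap, against 11 % of all genes with a read, and 0 were lower, against 11.1 %. The gaps were narrow. Cd3g had 6 reads in Sacral NC 2 and 5 in Injury 1, and Ms4a1 had 1 in Sacral NC 2 and 0 in Injury. Cd79a had 4 in Sacral NC 2 and 2 in each Injury library. The Cd4 row had a log2 change of 1.63 ± 0.61 with an adjusted p of 0.138 by edgeR and 0.0318 by DESeq2, and of 0.66 without Sacral NC 3.

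Sacral NC against Sham compares transplanted rats with uninjured ones. Here 0 of the 3 tested members and 0 % of all genes passed by edgeR, with 7.94 % of all genes and 0 of the 3 members at an unadjusted p under 0.05. DESeq2 called 0.374 % of genes and no member. The log2 change was −1.51 ± 0.67 for Cd2 (adjusted p = 0.630), −0.96 ± 0.49 for Cd3g (0.637) and 0.72 ± 0.48 for Cd8a (0.703), with SE and adjusted p by edgeR. Ms4a1 was higher in Sacral NC and Cd2 lower with no overlap, against 5.82 % and 5.98 % of all genes with a read. The gap was narrow for Cd2, with at most 16 reads in Sacral NC libraries and at least 18 in Sham libraries. These comparisons share their groups in pairs, so their values are not independent of each other.

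**Figure D3:**
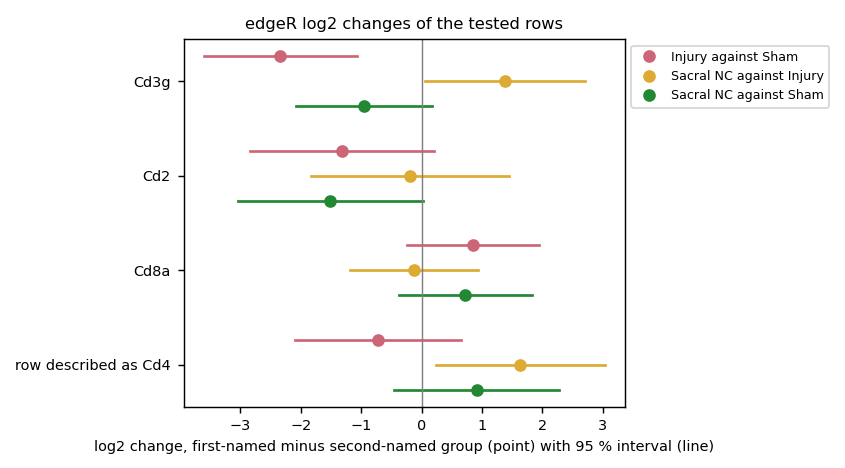
Log2 change (x axis, first-named minus second-named group) with its 95 % interval from the edgeR fit, for the 3 tested members and the row described as Cd4 in each comparison (colours). Only the Cd3g interval for Injury against Sham lies wholly below 0, and only those of Cd3g and the Cd4 row for Sacral NC against Injury lie wholly above 0; none of these passed after adjustment over all genes.

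Other genes of the B cell program were taken from a list of 22, all found and 17 tested. In Injury against Sham 0 of 17 passed by edgeR (3 at an unadjusted p under 0.05, and 1 by DESeq2), with a median log2 change of −0.57 beside −0.04 over all genes. Of all genes tested, 4.43 % passed by edgeR and 21.9 % were at an unadjusted p under 0.05, and 9.79 % passed by DESeq2. In Sacral NC against Injury 4 of 17 rose and 0 fell, against 3.26 % and 3.7 % of all genes, with a median of 0.78 beside 0.03. In Sacral NC against Sham 0 of 17 passed by edgeR (3 at an unadjusted p under 0.05, and 1 by DESeq2), with a median of 0.42. Of all genes, 0 % passed by edgeR there and 7.94 % were at an unadjusted p under 0.05, and 0.374 % passed by DESeq2. The genes of this list with the highest levels were Swap70, Fcrl1, Cd37 and Blnk. Blnk, the adaptor that links the B cell receptor to downstream enzymes, had 126, 198 and 152 reads in Sham, 67, 72 and 73 in Injury and 161, 69 and 288 in Sacral NC. Sacral NC 2 was thus at the level of Injury. Its log2 change in Sacral NC against Injury was 1.20 ± 0.45 (adjusted p = 0.138 by edgeR), that of the tetraspanin gene Cd37 was 1.43 ± 0.62 (0.185) and that of Swap70 was 0.28 ± 0.11 (0.148).

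The 4 genes that rose were Fcrl1, Cd72, Bank1 and Cxcr5. Bank1, a scaffold protein of B cell receptor signalling, had 4, 11 and 6 reads in Sham, 2, 1 and 2 in Injury and 17, 25 and 23 in Sacral NC. The log2 change came to 3.53 ± 0.50 (SE; edgeR adjusted p = 0.00872), and Bank1 lay above both other groups in all Sacral NC libraries, Sacral NC 2 included. Cxcr5, the receptor for the chemokine CXCL13, had 63, 81 and 68 reads in Sham, 33, 40 and 30 in Injury and 91, 77 and 67 in Sacral NC. For Cxcr5 the log2 change was 1.08 ± 0.23 (edgeR adjusted p = 0.0322), and Sacral NC overlapped Sham.

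Cd72, an inhibitory co-receptor of B cells, had 6, 35 and 25 reads in Sham, 14, 9 and 15 in Injury and 121, 51 and 233 in Sacral NC, a log2 change of 3.33 ± 0.72 (adjusted p = 0.0330 by edgeR). Fcrl1, whose product is a B cell surface receptor in human and mouse, had 5, 26 and 70 reads in Sham, 1, 0 and 0 in Injury and 292, 15 and 1240 in Sacral NC. Sacral NC 2 thus lay below Sham 2 and Sham 3. The log2 change of Fcrl1 in Sacral NC against Injury was 10.09 ± 2.25 (SE; adjusted p = 0.0372 by edgeR). Against the single Injury read the pooled ratio was 1452, with a counting interval from 260.2 to 57393, which leaves out the spread between libraries. Without Sacral NC 3, which held 1240 of the 1547 Sacral NC reads, the ratio was 428 (interval 76.2 to 16954), and over the other single-library omissions that left a read in Injury it ran from 938 to 2161. Fcrl1 and Cd72 were highest in Sacral NC 3, the library that also led the macrophage list, and lowest within the group in Sacral NC 2. The part of macrophages in these reads was not tested. Over the 9 single-library omissions the adjusted p by edgeR reached 0.149 for Fcrl1, 0.109 for Cd72 and 0.110 for Cxcr5, while for Bank1 it was at most 0.0424. Without the 4 muscle-rich libraries it was 0.112 for Bank1.

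These genes stood beside B cell members with few reads. In Sacral NC 3, with 1240 Fcrl1 reads, Cd79a was at 9, Cd79b at 8 and Ms4a1 at 5. Counts of different genes are not corrected for transcript length here, because the tables give no transcript length.

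**Figure D4:**
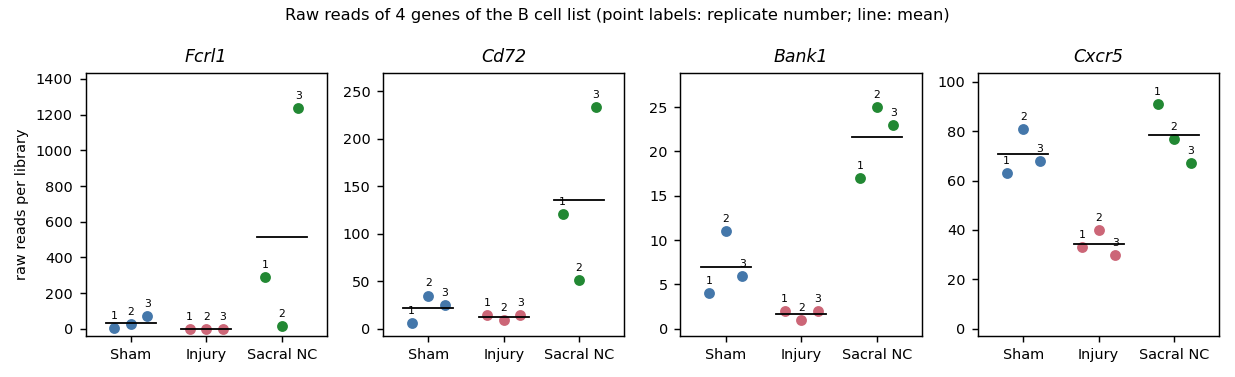
Raw reads (y axis, a scale of its own in each panel) of the 4 genes of the B cell list that rose in Sacral NC against Injury, in the 3 libraries of each group (x axis); points are libraries with their replicate number and the line is the group mean. Fcrl1 and Cd72 are highest in Sacral NC 3, and Bank1 is at 17 to 25 reads in all 3 Sacral NC libraries.

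Of 28 further T cell genes 27 were found and 17 tested. In Injury against Sham 0 of 17 passed by edgeR, against 4.43 % of all genes (median log2 change −0.58). At an unadjusted p under 0.05 the count was 3, against 21.9 % of all genes, and 0 passed by DESeq2, against 9.79 %. In Sacral NC against Injury 1 rose and 0 fell, against 3.26 % and 3.7 % of all genes (median 0.41). In Sacral NC against Sham 0 passed by edgeR, against 0 % of all genes (median −0.14). At an unadjusted p under 0.05 the count was 1, against 7.94 %, and 0 passed by DESeq2, against 0.374 %. The genes of this list with the highest levels, Gata3, Lcp2, Tcf7 and Cd28, passed in none of the comparisons. The co-stimulatory receptor Cd28 had 120, 80 and 44 reads in Sham, 70, 95 and 34 in Injury and 43, 41 and 68 in Sacral NC, so it did not share the Sham 2 peak of the CD3 genes. The gene that rose was Cd7, an early marker of T and natural killer cells, with 38, 39 and 47 reads in Sham, 21, 16 and 26 in Injury and 103, 39 and 103 in Sacral NC. The log2 change of Cd7 was 1.87 ± 0.39 (edgeR adjusted p = 0.0292, and up to 0.0949 with single libraries left out). Sacral NC 2 was within the Sham range of reads, and the other Sacral NC libraries were above it.

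Of the 27 T cell genes of this list, 20 had their highest scaled CPM within Sham in Sham 2, 3 in Sham 1 and 4 in Sham 3. Il7r, Bcl11b, Tcf7 and Lef1 were among those not highest in Sham 2. Of the 20 genes of the B cell list with a Sham read, 13 were highest in Sham 2, 0 in Sham 1 and 7 in Sham 3. The share over all genes was not counted, so these counts cannot show whether either list differed from other genes in this. The co-stimulator Icos had 40 reads in Sham 2 against 7 and 12 in the other Sham libraries, and the receptor adaptor Trat1 had 11 against 0 and 3. Lck, the kinase that first phosphorylates the CD3 chains, had 59, 82 and 72 reads in Sham, 47, 30 and 35 in Injury and 53, 35 and 87 in Sacral NC. The genes named here were picked after their values were seen. The muscle share of Sham 2 was 0.0341 %, close to that of Sham 3 at 0.0367 %.

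Markers of other leukocytes are given beside the members, since their levels also differed between libraries. All 18 tested macrophage and monocyte genes had log2 changes above 0 in Sacral NC against Injury, with a median of 1.89. Of these 0 passed by edgeR, with 14 at an unadjusted p under 0.05 and 12 passing by DESeq2. Of all genes, 6.96 % passed by edgeR there, 26.6 % were at an unadjusted p under 0.05 and 14 % passed by DESeq2. In Injury against Sham 1 of 18 was above 0 (median −0.97), and 0 passed by edgeR, against 4.43 % of all genes. There 2 were at an unadjusted p under 0.05, against 21.9 %, and 1 passed by DESeq2, against 9.79 %. Of 19 tested genes shared by most leukocytes 1 was called in Sacral NC against Injury, against 6.96 % of all genes. This was Arhgdib (log2 change 1.23 ± 0.27, adjusted p = 0.0355 by edgeR, and up to 0.116 with single libraries left out). In that comparison 13 of 19 were at an unadjusted p under 0.05, 9 passed by DESeq2 and 19 of 19 were above 0. Ptprc, the common leukocyte antigen CD45, had 441, 559 and 617 reads in Sham, 226, 296 and 323 in Injury and 765, 279 and 2113 in Sacral NC. Of 16 natural killer and cytotoxic genes found, 4 were tested and 0 passed by edgeR in any comparison, where at most 6.96 % of all genes passed. In Injury against Sham 1 was at an unadjusted p under 0.05, against 21.9 % of all genes. By DESeq2 0 passed there, against 9.79 %. In Sacral NC against Injury these counts were 2 and 2, against 26.6 % and 14 %. In Sacral NC against Sham both were 0, against 7.94 % and 0.374 %. The 16 genes summed to 5.44 to 12.0 scaled CPM in Sham, 2.82 to 4.30 in Injury and 2.01 to 19.7 in Sacral NC. The part of these cells in the Cd2 and Cd8a reads was not tested.

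The genes most like the members in pattern were ranked by Pearson's r over the 9 libraries, among 13191 tested protein-coding genes, as a description with no test. For the mean log2 CPM of the 3 B cell members these were Rhog (r = 0.983), Ly86 (0.982), Rgs1 (0.978), Snrpb2 (0.977) and Lilra5 (0.973). Ly86, which encodes MD-1, had 143, 42 and 287 reads in Sacral NC and at most 77 elsewhere. For the mean of the 3 CD3 genes they included Rarres1 (0.985), Etv3 (0.941), Sat1 (0.938) and Prss30 (0.926). Rarres1 had 379, 1338 and 478 reads in Sham and Prss30 had 30, 851 and 78, so both peaked in Sham 2 as the CD3 genes did. The libraries share depth and tissue makeup in these correlations, and the members' own counts are sparse.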

How the data were processed

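The authors deposited 3 tables, 1 for each pair of groups. Per the file headers each holds raw read counts per gene in 6 libraries, group means of those counts, and the authors' own log2 fold change, test statistic (a score), p-value and adjusted p-value. The submitters' processing notes name HISAT2 2.0.5 and the mouse build GRCm38.p6, while all 21124 identifiers are rat Ensembl identifiers. How reads were counted, whether by strand, and with which annotation was not given in the sources used here. Sequences of the mouse reference were not used for rat genes. Libraries listed in 2 tables had the same counts, and all 9 were joined.

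All 9 libraries entered 1 robust quasi-likelihood fit of the counts in edgeR 4.0.16 (R 4.3.3), after TMM scaling and the default low-count filter. P-values of the 15509 genes kept were adjusted by Benjamini-Hochberg, with a threshold of 0.05. The fit was tested on simulated data. Intervals of log2 changes use the degrees of freedom of the fit, and counting intervals are exact binomial intervals at 95 %. Members under the filter were given as reads and not tested. Alternatives were RLE scaling, no filter, at least 10 reads in every library of a group, DESeq2 1.42.0, the replicate number as a block, only the 2 groups compared, a muscle score as covariate, leaving out the 4 libraries with over 0.1 % muscle reads, and each library left out in turn. Leaving out libraries from the pooled ratios was chosen after seeing the data. All members, and genes of 14 marker lists that were called or highest in level, were to be named. Of the latter some are left out of the text, and the lists given in detail are those of leukocytes, picked after the values were seen. Replicate numbers shared between groups come from the titles and were not used to pair the libraries in the main fit. The members and lists were chosen with earlier results of these data known. Some genes of the lists and rankings are not reported here.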

Additional observations from a re-analysis of the deposited data

How the results depend on the processing

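In Injury against Sham the count of called members was 0, and 1 (Cd3g) with at least 10 reads in every library of a group (adjusted p = 0.0490), with DESeq2 (0.0177) and with only the 2 groups compared (0.0483). Leaving out single libraries gave 0 to 1, the 1 without Sacral NC 2 (0.0382). In both other comparisons the count was 0 under every alternative run. The replicate block gave 0 called members in all 3 comparisons. Same-numbered libraries had correlations of their deviations from −0.55 to 0.62, 5 of 9 over 0.1, and differently numbered ones from −0.66 to 0.60. With 3 libraries a group these values cannot decide whether the numbers mark pairs. The cause of the moves in the count of called members was not tested.

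Over all genes, 687 were called in Injury against Sham, and 1584 with DESeq2, 267 with the replicate block, 1456 with 2 groups and 1 without the muscle-rich libraries (21 to 1329 with single libraries left out). In Sacral NC against Injury 1080 were called, and 2268, 471, 239 and 59 in the same order, and 532 with the muscle score (285 to 3574). In Sacral NC against Sham the 0 became 62 with DESeq2, and 0 to 106 with single libraries left out.

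Of 148 log2 changes of the tested members under alternatives 5 changed sign, all in Sacral NC against Injury. Without the muscle-rich libraries Cd8a was 0.048 and Cd2 0.21, and with single libraries left out Cd8a ran from −0.51 to 0.19 and Cd2 from −1.12 to 0.33. In Injury against Sham Cd72 was 0.22 with the muscle score and Ccl21 0.062 without the muscle-rich libraries. The Cd4 row ran from −0.026 to 1.37 in Sacral NC against Sham with single libraries left out. With the Cd4 row, an alternative chosen after seeing the data, the summed level of the members was 82.6 scaled CPM in Sham, 49.3 in Injury and 149.6 in Sacral NC, where without it and with single libraries left out it ran from 2.94 to 5.85, 1.99 to 2.15 and 2.26 to 4.28. Scaled by the library total alone the Injury sum was 1.83. The planned sum without Cd4 is the one reported, since no row had that symbol. At these depths 5 of the 8 members could not be tested with the filter on.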

Other observations

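Immunoglobulin and lymphoid stroma genes were also read. Jchain, the joining chain of secreted IgM and IgA, had 31, 21 and 36 reads in Sham, 12, 6 and 3 in Injury and 78, 6 and 73 in Sacral NC. The row with the symbol Ighm, which the deposited tables describe as the heavy constant epsilon gene, had 91, 69 and 86 reads in Sham, 41, 38 and 48 in Injury and 365, 46 and 334 in Sacral NC, so which immunoglobulin class it counts is uncertain. Neither passed in any comparison by edgeR. Ighm came close in Sacral NC against Injury, with a log2 change of 2.46 ± 0.63 (SE; edgeR adjusted p = 0.0544). In both, Sacral NC 2 was close to Injury and the other Sacral NC libraries were above Sham. Of 9 tested plasma cell genes 4 were at an unadjusted p under 0.05 by edgeR in Sacral NC against Injury, against 26.6 % of all genes. By DESeq2 3 passed there, where 14 % of genes were called. By edgeR 1 of the 9 was called, Fkbp11, a chaperone gene that other secretory cells also use. It rose in Injury against Sham (1.32 ± 0.22 on the log2 scale; edgeR adjusted p = 0.0194) and fell in Sacral NC against Injury (−1.03 ± 0.22, 0.0315). With single libraries left out its adjusted p reached 0.0781 and 0.0957.

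Of 9 tested lymphoid stroma genes 3 rose in Sacral NC against Injury by edgeR, against 3.26 % of all genes, and 0 fell, against 3.7 %. At an unadjusted p under 0.05 the count was 5, against 26.6 %, and 3 passed by DESeq2, against 14 %. In that comparison 7 of the 9 had log2 changes above 0. Clu, 1 of the 3 that rose, fell in Injury against Sham, where 1.34 % of all genes fell (−1.07 ± 0.16, adjusted p = 0.0138 by edgeR, and up to 0.0707 with single libraries left out). Cxcl13, a chemokine that attracts B cells through CXCR5, had 591, 705 and 730 reads in Sham, 252, 52 and 261 in Injury and 2366, 1191 and 4133 in Sacral NC (log2 change 3.71 ± 0.62, adjusted p = 0.0149 by edgeR, Sacral NC against Injury; up to 0.0516 with single libraries left out). Ccl21, which attracts T cells, had 3229, 3049 and 2683, then 1890, 1303 and 2653, then 7726, 3583 and 6450 reads in the same groups (1.53 ± 0.30, adjusted p = 0.0234; up to 0.0778). With only the 2 groups compared the adjusted p was 0.0629 for Cxcl13 and 0.0805 for Ccl21, and without the muscle-rich libraries 0.0600 and 0.0592. Both were above Sham in all 3 Sacral NC libraries, where Ms4a1 had 1 to 5 reads and Cd3e 2 to 12. The chemokine gene Ccl19 of the same list went the other way against Sham. It had 38, 38 and 22 reads in Sham, 9, 8 and 5 in Injury and 14, 5 and 18 in Sacral NC. By raw reads every Sacral NC library thus lay below every Sham library for Ccl19. Lymphocyte number was not measured.

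Over all genes tested, 3.09 % rose and 1.34 % fell in Injury against Sham, and 3.26 % rose and 3.7 % fell in Sacral NC against Injury. At an unadjusted p under 0.05 the shares were 21.9 % and 26.6 %, and by DESeq2 9.79 % and 14 % were called. Of the other lists, 8 of 12 endothelial genes fell in Injury against Sham and 7 rose in Sacral NC against Injury. Of 12 fibroblast genes 5 rose in the former, and 5 fell and 1 rose in the latter. Of 5 neutrophil genes 3 fell in the former. Of 12 smooth muscle and 16 skeletal muscle genes 0 passed in these comparisons by edgeR or DESeq2, and 0 were at an unadjusted p under 0.05. Of 9 mast cell genes 0 passed by edgeR, with 3 at an unadjusted p under 0.05 and 2 called by DESeq2 in each of them. Of 10 dendritic cell genes Fscn1 rose in the former and fell with Zbtb46 in the latter, where Clec9a rose; with single libraries left out the adjusted p reached 0.102 for Fscn1 in the former, and 0.147 for Zbtb46 and 0.113 for Clec9a in the latter.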
